A study of Mus musculus with 6 samples.

Results

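The insulin-like growth factor (IGF) axis was followed through 10 genes of the deposited expression matrix, chosen by symbol: the ligands Igf1 and Igf2, the receptors Igf1r and Igf2r, and the binding protein genes Igfbp2 to Igfbp7. They are 10 of 23057 gene symbols in the matrix. The libraries were made from total RNA of brains labelled as whole, dissected from PBS-perfused C57BL/6 mice 30 days after mock irradiation (3 mice) or after a single cranial X-ray exposure of 10 Gy through a collimated field (3 mice). The labels state neither the sex nor the age of the mice. They name no genetic change in either group. Values are FPKM, read numbers divided by transcript length and by the size of the library. This scaling allows only a rough comparison of levels between genes and between libraries. The summed FPKM still differed between libraries, and so did the values of long and short transcripts, as described below. The series concerns radiation-induced senescence in the tissue around brain tumors, and binding proteins of this family are among the factors that senescent cells are known to secrete.

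IGF1 and IGF2 are small secreted growth factors that act through IGF1R, a receptor tyrosine kinase that signals through PI3K, AKT and mTOR. IGF2R, the cation-independent mannose 6-phosphate receptor, carries lysosomal enzymes and removes IGF2 from the cell surface without signalling as a kinase. The binding proteins hold the ligands in the fluid around cells and prolong, block or localise their action. In the adult rodent brain, Igf2 is made mainly by the choroid plexus and the leptomeninges, whereas Igf1 is made by some neurons and by microglia in injured tissue.

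The coding sequences of 4 of the 10 members, all 4 of them binding protein genes, share a signature of the ligand-binding amino-terminal domain. Choosing binding protein genes by symbol favours genes with this domain. The match is therefore a description of the sequences and not independent of the choice. A run of 5 codons that begin, in order, with the letters GG, TG, GG, TG and TG was searched in frame on the coding strand of the longest GENCODE coding sequence of 21756 genes, and 0.124% of the genes (27 genes) held it. Those 27 genes also include Igfbp1 and the CCN genes Ccn1, Ccn2, Ccn5 and Ccn6, whose proteins have the same type of domain. The matches lie within coding exons of GRCm38, at chr1:72824778-72824792 (plus strand) for Igfbp2, chr11:7213575-7213589 (minus strand) for Igfbp3, chr11:99041650-99041664 (plus strand) for Igfbp4 and chr1:72873975-72873989 (minus strand) for Igfbp5. Capitals mark the fixed letters of the signature, and lower case the letters that may vary.
Igfbp2: GGcTGcGGcTGcTGc
Igfbp3: GGcTGcGGcTGcTGc
Igfbp4: GGcTGcGGtTGtTGc
Igfbp5: GGcTGtGGcTGcTGc
Igfbp2 and Igfbp3 were identical over this stretch, and the other genes differed from them only at letters left free. Igfbp6 and Igfbp7 had no such match in their longest coding sequence. Igfbp2 (chr1:72824480-72852474) and Igfbp5 (chr1:72858065-72874865) are neighbours that face each other tail to tail, with 5590 bases between them.

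One gene of the axis was higher in irradiated brain, and the others were not separated from mock. Igfbp4, which encodes a binding protein that mostly blocks IGF action until a protease cuts it, rose 2.27-fold (95% interval 1.46 to 3.52). The other 9 members did not pass the test in either direction. The test was limma on log2(FPKM + 0.5) over the 14585 genes that averaged 0.5 FPKM or more, with Benjamini-Hochberg adjustment over all of them and a call at an adjusted p under 0.05. All 10 members were above that minimum. Thus 1 of 10 members was called higher and 0 were called lower (1 and 0 at an unadjusted p under 0.05), where 3.48% of all tested genes were called higher and 4.24% lower, 7.72% in all. The median log2 change of the 10 members was -0.05, beside -0.02 for all tested genes. Igfbp4 was also the only member whose groups did not overlap, where 31.5% of all tested genes had such groups, 13.7% with irradiation above and 17.7% below mock.

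**Figure D1:**
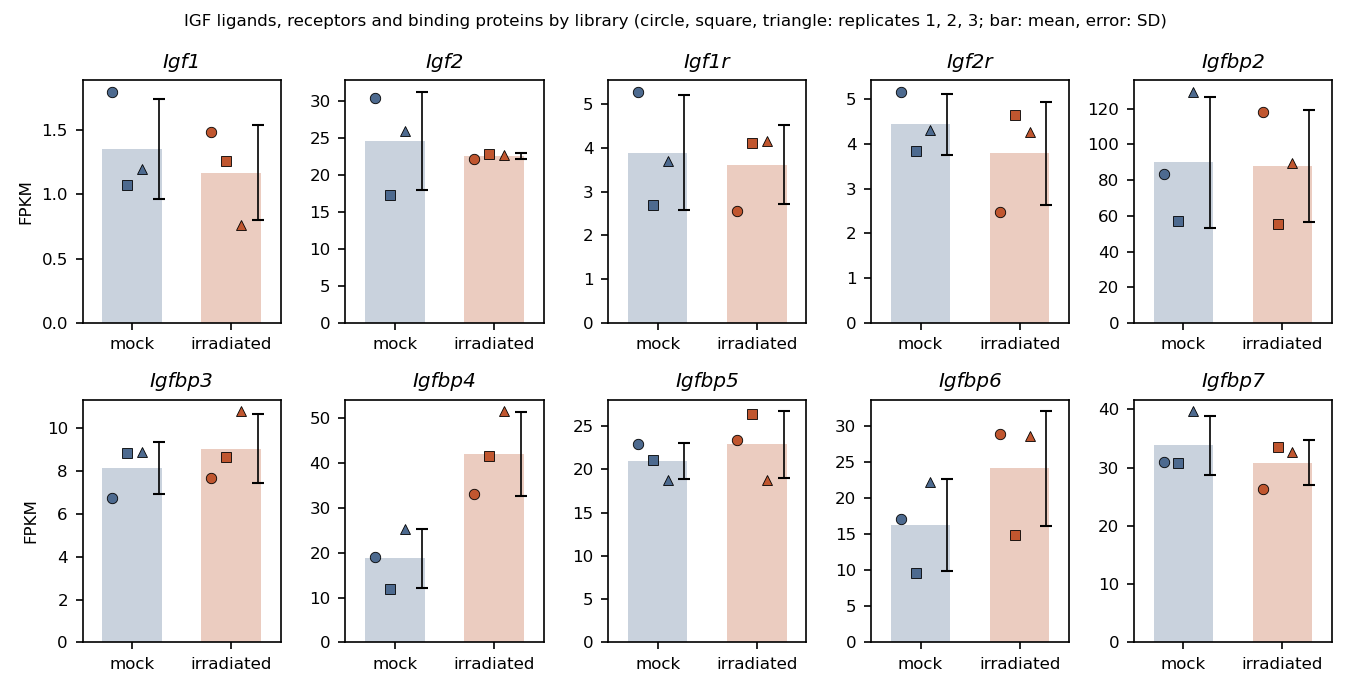
FPKM of the 10 genes in each library; bars are group means, error lines the SD of 3 libraries, and circles, squares and triangles replicates 1, 2 and 3. The Igfbp4 points of the irradiated group (33.0 to 51.5 FPKM) lie above those of mock (12.01 to 25.2 FPKM), and the groups overlap for every other gene.

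The samples need a caution before single genes are read. In the same libraries 10 of 11 cerebellum markers fell (median log2 change -4.00) and 4 of 8 telencephalon markers rose with 0 lower (median 1.99), so the regional makeup of the libraries and the irradiation cannot be told apart. The summed FPKM of the cerebellum markers was 944.3 to 1343 in the mock brains, against 29.1 to 68.3 after irradiation, and that of the telencephalon markers was 95.7 to 256.8 and 432.8 to 833.9. Mock 2 stood apart with the lowest telencephalon sum. It was also the lowest mock library for 8 of the 10 members and the highest for 0. Irradiated 1 was the lowest irradiated library for 6 members and the highest for 3. The olfactory bulb output neuron markers summed to 10.3 FPKM in mock 2 and to 6.55 and 6.66 FPKM in irradiated 2 and 3, but to at least 131.8 FPKM in the other 3 libraries, with 0 of 5 tested called in limma (0 higher, 1 lower by unadjusted p under 0.05). Neuronal markers were present throughout, with Snap25, a synaptic vesicle fusion protein, at 1094 to 1496 FPKM. Irradiated 1 also stood apart by transcript length: among the 813 tested genes with a longest transcript of 8 kb or more, its median centred log2 value was -0.49, whereas the other libraries had medians from -0.01 to 0.30. Among the 3060 genes under 2 kb, irradiated 1 was instead the highest, with a median of 0.24 against -0.21 to 0.085 in the others. In bulk tissue, fewer cells of a type and less RNA per cell cannot be told apart.

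Levels differed widely between members. Igfbp2 led in every library, with 55.7 to 129.6 FPKM, and its range did not overlap that of the next gene, Igfbp7, at 26.4 to 39.7 FPKM. Igfbp7, Igfbp4, Igf2, Igfbp5 and Igfbp6 followed with means of 32.3, 30.4, 23.6, 21.9 and 20.2 FPKM over the 6 libraries. Each of these stood above the next in 3 of 6 libraries, so no order that holds over all 6 can be read. The splits with Igfbp4 followed the groups: it lay below Igfbp7 and Igf2 in every mock library and above both in every irradiated library. Igfbp3 (mean 8.61 FPKM) was below Igfbp6 in all 6 libraries, although their ranges over libraries overlapped. The receptors were lower, with Igf2r at 4.11 and Igf1r at 3.75 FPKM and ranges that overlapped. Igf1 came last at 1.26 FPKM, below Igf1r in all 6 libraries with no overlap. Among all tested genes the mean of Igfbp2 lay at percentile 92.6 and that of Igf1 at percentile 10.4.

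The ligands did not differ between the groups beyond the spread of the libraries. Igf1 (chr10:87858265-87937047), whose product mediates much of the action of growth hormone, had 1.80, 1.07 and 1.19 FPKM in mock 1, 2 and 3 and 1.48, 1.26 and 0.759 FPKM in irradiated 1, 2 and 3. The highest value was in mock 1 and the lowest in irradiated 3. The other 4 lay between, with irradiated 1 and 2 above mock 2 and 3. The log2 change was -0.16 (SE 0.24, 95% interval -0.70 to 0.38, limma adjusted p = 0.70). Igf2 (chr7:142650768-142666816), an imprinted fetal growth factor that stays on in the membranes around the adult brain, had 30.5, 17.3 and 26.02 FPKM in the mock brains, against 22.1, 22.9 and 22.8 FPKM after irradiation. The irradiated libraries lay close together, inside the wide mock range. The log2 change was -0.08 (SE 0.21, 95% interval -0.57 to 0.40, adjusted p = 0.83), and with the telencephalon markers as a covariate it was -0.62 (SE 0.23, adjusted p = 0.37). Igf2 exceeded Igf1 in each library, by a ratio of 14.9 to 30.02.

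Both ligands come from cells whose own markers can be read in the same libraries. Of 13 choroid plexus markers, 1 fell and 0 rose (median log2 change -0.52), the 1 being Kcne2, a potassium channel subunit of that epithelium, with a log2 change of -1.56 (SE 0.26). By unadjusted p under 0.05 in limma, 6 of the 13 were lower and 0 higher. The summed FPKM of that list, mostly Ttr, was 957.1 to 2207 in the mock brains, against 812.8 to 1056 after irradiation. Of 14 leptomeningeal and fibroblast markers, 1 rose and 1 fell (median -0.07), and their summed FPKM was 70.04 to 100.3 in the mock brains, against 82.4 to 111.5 after irradiation. Dcn, a matrix proteoglycan, was at 14.4, 18.4 and 17.1 FPKM in the mock brains, against 37.8, 24.1 and 40.2 FPKM after irradiation, and Slc47a1, a transporter, had a log2 change of -0.71. Of 12 microglia markers, 1 rose and 0 fell, and of 9 tested markers of disease-associated microglia, a state in which microglia are known to express Igf1, 2 rose and 0 fell. The first was Fcrls, and the other 2 were Lpl, a lipase, and Cst7, a cystatin, with log2 changes of 1.51 and 1.08. By unadjusted p under 0.05 in limma, 5 of the 12 microglia markers were higher and 0 lower. Of the 9 disease-associated markers, 4 were higher and 1 lower by that measure (median 0.39). The lower one, Spp1, which encodes osteopontin, is named after its values were seen, at -1.06 on the log2 scale (adjusted p = 0.064 in limma); Gpnmb, Axl and Csf1 had negative values of -0.40, -0.21 and -0.06. The summed level of the microglia markers was 138.8 to 162.4 FPKM in the mock brains, against 148.4 to 196.7 FPKM after irradiation, and that of the disease-associated list, mostly Apoe, was 2653 to 4148 and 3067 to 5345 FPKM, with none of the markers at 0 in any library. The part of these cells in the ligand values was not tested.

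The receptors were also not separated. Igf1r (chr7:67952257-68233668) had 5.28, 2.68 and 3.70 FPKM in the mock brains, against 2.57, 4.11 and 4.15 FPKM after irradiation. Its lowest values were in mock 2 and irradiated 1, the libraries named above as standing apart. The log2 change was -0.08 (SE 0.26, 95% interval -0.68 to 0.52, adjusted p = 0.88). Igf2r (chr17:12682406-12769706) had 5.17, 3.83 and 4.31 FPKM in the mock brains, against 2.48, 4.63 and 4.25 FPKM after irradiation. Irradiated 1 was lowest and the other libraries of both groups were mixed. The log2 change was -0.23 (SE 0.24, 95% interval -0.77 to 0.31, adjusted p = 0.57), and without irradiated 1 it was 0.01. With longest transcripts of 11409 and 8887 bases, the receptor genes are the members in the longest class. Igf1 and Igfbp5, at 7052 and 6006 bases, fall in the class of 5 to 8 kb, where irradiated 1 was also lowest with a median of -0.29. The part of transcript length in the values of these genes was not tested. With the telencephalon markers as a covariate the log2 changes were -0.72 for Igf1r (SE 0.32, adjusted p = 0.46) and -0.61 for Igf2r (SE 0.35, adjusted p = 0.56).

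Airn, the long noncoding RNA transcribed against Igf2r and known in mouse to silence its paternal copy in many tissues, fell. It had 9.19, 11.6 and 12.9 FPKM in the mock brains, against 4.04, 2.36 and 3.08 FPKM after irradiation, and every irradiated value lay below every mock value. The log2 change was -1.69 (SE 0.22, limma adjusted p = 0.0033). Airn overlaps Igf2r over 28396 bases on the opposite strand, and the sources used here do not say whether counting used strand, so in the shared stretch reads of the genes may not have been told apart. With the mean of the telencephalon markers as a covariate the change was -1.55 and no longer called (adjusted p = 0.15; range over 20 alternatives 0.0011 to 0.15).

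Igfbp4 (chr11:99040005-99052655, plus strand) was the member that moved. It had 19.002, 12.01 and 25.2 FPKM in mock 1, 2 and 3 and 33.0, 41.5 and 51.5 FPKM in irradiated 1, 2 and 3. All 3 irradiated libraries lay above the highest mock library, and the lowest value was in mock 2. Group levels were 18.7 ± 6.58 FPKM in the mock brains, against 42.0 ± 9.30 FPKM after irradiation (SD, n = 3 each). The log2 change was 1.18 (SE 0.28, 95% interval 0.55 to 1.81, limma adjusted p = 0.039). It ranked 882 by p among the 14585 genes tested. The call was lost with no minimum on expression (adjusted p = 0.070) and without mock 1, mock 2, irradiated 2 or irradiated 3 (adjusted p = 0.10, 0.092, 0.077 and 0.14), with the log2 change at 0.90 to 1.42 over the 6 fits that leave out 1 library. With mock 2 and irradiated 1 left out together it was 1.06 (adjusted p = 0.020; range over the 20 alternatives 0.017 to 0.62).

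The Igfbp4 values followed the telencephalon markers across libraries. The centred marker mean was -0.21, -2.46 and -0.29 in the mock brains, against 0.50, 0.92 and 1.54 after irradiation, so the irradiated libraries had the same order in both measures and mock 2 was lowest in both. The centred mean of the cerebellum markers ran in the reverse order of Igfbp4 over the 6 libraries, from 2.54 in mock 2 to -2.65 in irradiated 3. With the telencephalon mean as a covariate the log2 change of Igfbp4 was 0.38 (SE 0.26, adjusted p = 0.62). The covariate itself did not overlap between the groups, so that fit cannot separate region from irradiation. Oligodendrocyte markers moved as well: 3 of 10 fell (Ugt8a, Mobp and Ermn), all 10 were lower by unadjusted p under 0.05, and the median log2 change was -0.82. Their centred mean was 0.29, 0.58 and 0.52 in the mock brains, against -0.08, -0.36 and -0.96 after irradiation, with no overlap and in nearly the reverse order of Igfbp4. The centred mean of the interneuron markers was -0.06, -0.69 and 0.02 in the mock brains, against 0.24, 0.14 and 0.36 after irradiation. It did not overlap and had nearly the order of Igfbp4, although 3 of the 10 markers were called higher and 2 lower. That of the astrocyte markers was 0.21, -0.002 and 0.25, against -0.04, -0.16 and -0.26, also with no overlap. The part of these cells in the Igfbp4 values was not tested. The microglia and leptomeningeal markers overlapped between the groups and did not follow the order of Igfbp4. With the leptomeningeal mean as a covariate the log2 change of Igfbp4 was 1.15 (adjusted p = 0.042). Among 13456 other genes that averaged 1 FPKM or more, the 3 whose centred log2 profiles over the 6 libraries lay nearest to Igfbp4 were Dos, Dbn1 and Cacnb1, at root mean square differences of 0.091, 0.11 and 0.12. Dbn1 encodes drebrin, an actin-binding protein of dendritic spines, and Cacnb1 a subunit of voltage-gated calcium channels. Both were called higher, with log2 changes of 1.15 and 1.35, and Dos was not (1.03, adjusted p = 0.056 in limma). These 3 genes were picked for their likeness to Igfbp4, so a similar change was fixed by the choice. Dbn1 was at 52.1, 31.1 and 53.9 FPKM in the mock brains, against 82.1, 93.5 and 125.4 FPKM after irradiation.

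**Figure D2:**
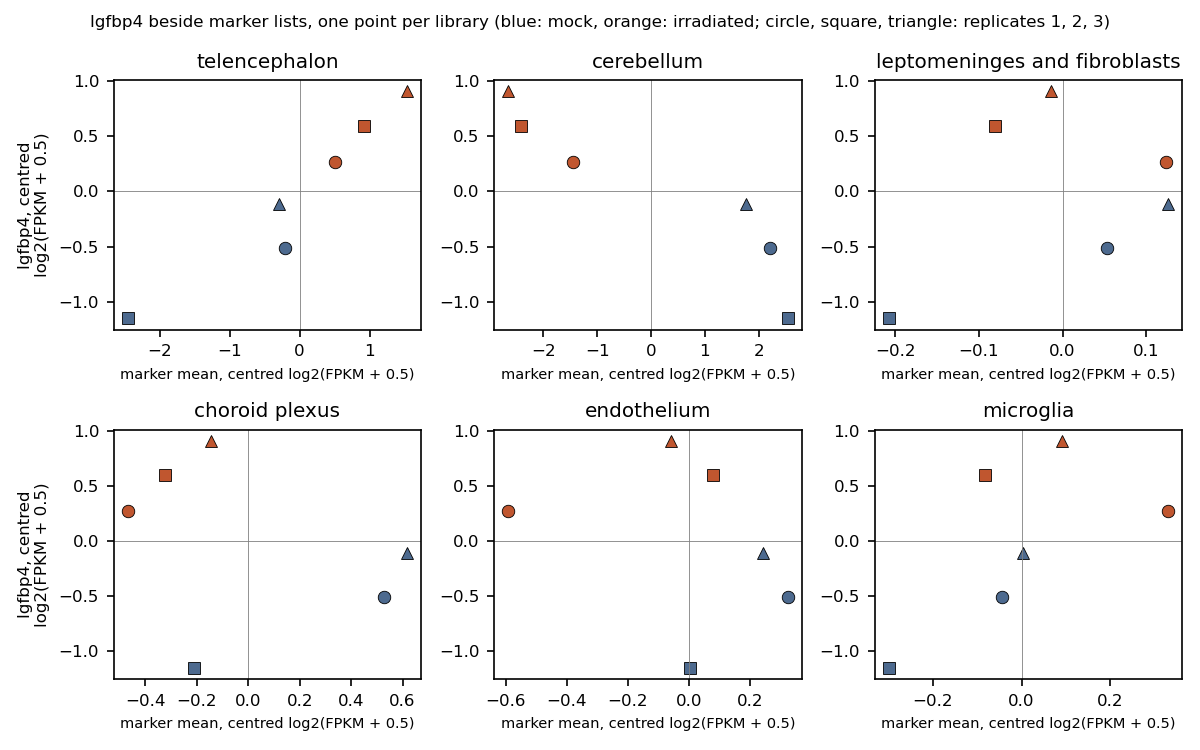
Each panel plots the centred log2(FPKM + 0.5) of Igfbp4 against the centred mean of one marker list, with 1 point per library (blue mock, orange irradiated; circle, square and triangle for replicates 1, 2 and 3). The telencephalon panel runs from mock 2 at -2.46 to irradiated 3 at 1.54 in nearly the order of Igfbp4, the cerebellum panel runs the opposite way, and in the other 4 panels the groups overlap on the marker axis or follow another order.

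The promoter of Igfbp4 is shown because it is the regulatory sequence of the single member that was called. The RefSeq window of GRCm38.p6 runs from 250 bases before to 50 bases after an annotated start site, at chr11:99040994-99041293 on the plus strand, and 71.3% of its bases are G or C. Capitals mark TATAAA, which begins 28 bases before the start site on the strand of the gene.
Igfbp4 promoter: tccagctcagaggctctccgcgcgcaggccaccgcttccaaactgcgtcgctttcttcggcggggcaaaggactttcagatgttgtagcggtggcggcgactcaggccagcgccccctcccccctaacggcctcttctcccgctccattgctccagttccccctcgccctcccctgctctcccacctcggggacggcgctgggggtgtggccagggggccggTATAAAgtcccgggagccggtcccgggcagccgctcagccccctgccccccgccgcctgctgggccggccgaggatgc
TATAAA was found on either strand in 13.6% of 32851 RefSeq promoter windows, and in 2 of the 14 windows of member genes, those of Igfbp4 and Igfbp6. The GC box GGGCGG (35.7% of all windows, either strand) and the CCAAT box CCAAT (37.4%) were not in this window of Igfbp4. GGGCGG was in 6 member windows, of Igf1r, Igf2, Igf2r, Igfbp2 and Igfbp7, and CCAAT in 3, of Igf1, Igf2 and Igfbp6. A match is only a description of the letters there.

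The other binding protein genes of high ligand affinity did not pass the test. Igfbp2, which encodes the most abundant IGF-binding protein of the brain's fluid, had 83.5, 57.2 and 129.6 FPKM in the mock brains, against 118.4, 55.7 and 89.8 FPKM after irradiation. Replicate 2 was lowest in both groups, and the ranges nearly coincided (log2 change -0.02, SE 0.35, 95% interval -0.81 to 0.77, adjusted p = 0.98). With the telencephalon covariate its log2 change was -0.59 (SE 0.52, adjusted p = 0.70). Its nearest profile over the 6 libraries was that of Ckb, the brain creatine kinase, at a root mean square difference of 0.11, followed by Ccdc109b and Sfn at 0.13 and 0.15.

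Igfbp5 encodes a binding protein that also attaches to extracellular matrix. It had 22.9, 21.1 and 18.8 FPKM in the mock brains, against 23.4, 26.4 and 18.8 FPKM after irradiation. This was the narrowest spread of the 10 members, with 0.48 between the lowest and highest library on the log2 scale (log2 change 0.12, SE 0.18, 95% interval -0.28 to 0.52, adjusted p = 0.70). Igfbp3, the main carrier of IGFs in blood, had 6.73, 8.84 and 8.89 FPKM in the mock brains, against 7.70, 8.67 and 10.8 FPKM after irradiation, which overlapped (log2 change 0.14, 95% interval -0.29 to 0.57, adjusted p = 0.67).

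Igfbp6 encodes the binding protein that prefers IGF2 to IGF1. It had 17.1, 9.54 and 22.1 FPKM in the mock brains, against 28.8, 14.9 and 28.5 FPKM after irradiation. Irradiated 1 and 3 lay above all mock libraries, and irradiated 2 lay below mock 1 and 3. Its log2 change of 0.57 (SE 0.34, 95% interval -0.21 to 1.36, adjusted p = 0.33) was not separated from 0, and it was -0.20 with the telencephalon covariate. Igfbp2, Igfbp6 and Igfbp7 have longest transcripts of 1307, 1112 and 1200 bases, in the class under 2 kb in which irradiated 1 was highest. Irradiated 1 was the highest irradiated library for Igfbp2 and Igfbp6 and the lowest for Igfbp7, and the part of transcript length was not tested. The 3 nearest profiles were those of Myl2, Snrpg and Pop7, at 0.11, 0.13 and 0.14.

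Igfbp7, a low-affinity relative made by blood vessels and known as a secreted senescence factor, was not separated. It had 31.0, 30.8 and 39.7 FPKM in the mock brains, against 26.4, 33.5 and 32.7 FPKM after irradiation (log2 change -0.13, SE 0.17, 95% interval -0.53 to 0.27, adjusted p = 0.67). The libraries of the groups were mixed, with irradiated 1 lowest. Irradiated 1 was also lowest on the endothelium markers, with a centred mean of -0.59 where the other libraries had -0.06 to 0.32. Of 12 endothelium markers 0 were called (0 higher, 3 lower by unadjusted p under 0.05 in limma), with a median log2 change of -0.36. The most abundant, Slc2a1 and Cldn5, had log2 changes of 0.21 and -0.38. Of 12 pericyte and smooth muscle markers 0 were called (0 and 1), with a median of -0.17. Their most abundant, Vtn and Rgs5, had log2 changes of 0.23 and -0.74.

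**Figure D3:**
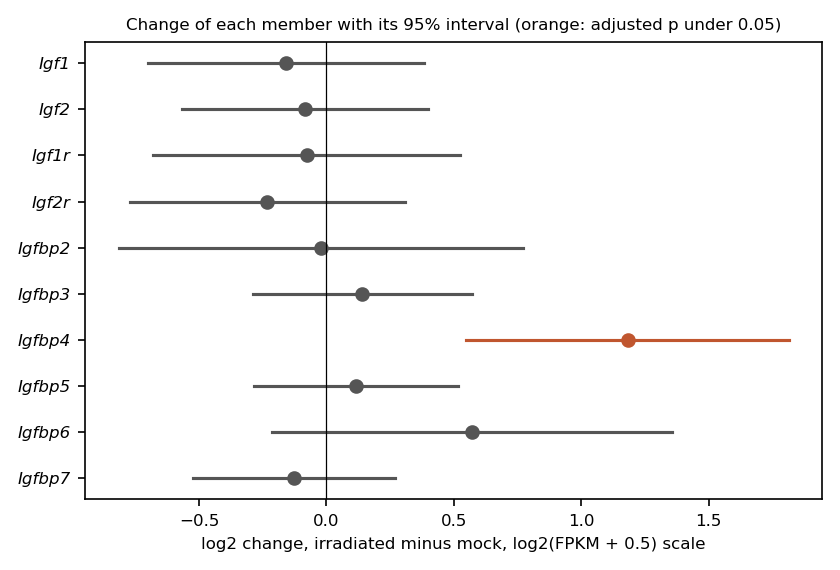
The log2 change of each gene, irradiated minus mock, on the log2(FPKM + 0.5) scale (point) with its 95% interval from limma (line). The interval of Igfbp4 runs from 0.55 to 1.81, and those of the other 9 genes include 0.

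Within the pool of transcripts for high-affinity binding proteins, the share held by Igfbp4 was larger in irradiated libraries. The summed FPKM of Igfbp2 to Igfbp6 was 149.3, 108.7 and 204.6 in the mock brains, against 211.4, 147.1 and 199.4 after irradiation, which overlapped. Igfbp4 made up 12.7%, 11.05% and 12.3% of that sum in the mock brains, against 15.6%, 28.2% and 25.8% after irradiation, so its share was higher in every irradiated library but only slightly in irradiated 1. Igfbp2 made up 56.0%, 52.6% and 63.4% in the mock brains, against 56.03%, 37.8% and 45.02% after irradiation. The shares of Igfbp2 and of the other 3 genes overlapped between the groups. The ratio of Igfbp4 to Igfbp2 was 0.211 ± 0.017 in the mock brains, against 0.532 ± 0.236 after irradiation (SD, n = 3). These shares were looked at after the change of Igfbp4 was known and carry no test.

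**Figure D4:**
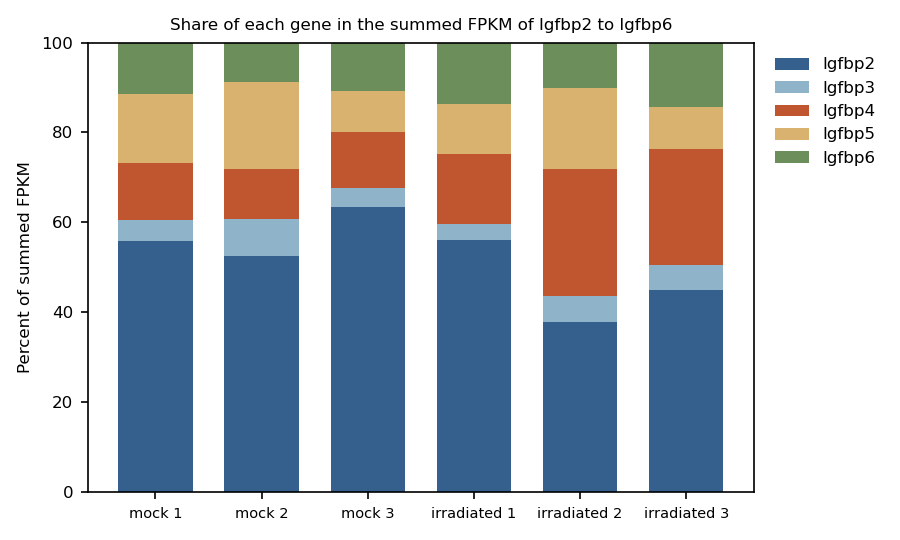
Stacked bars give the percent of the summed FPKM of Igfbp2 to Igfbp6 held by each gene in each of the 6 libraries. The Igfbp4 segment spans 11.05% to 12.7% in the mock brains, against 15.6% to 28.2% after irradiation.

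Of the genes that carry, cut or release the ligands, 5 of 9 were above the expression minimum and 0 were called in limma (1 higher, 1 lower by unadjusted p under 0.05; median log2 change -0.04). Htra1, a secreted serine protease that can cut binding proteins, was the most abundant at 132.1 to 213.1 FPKM in the mock brains, against 152.5 to 204.5 FPKM after irradiation (log2 change 0.22). Igfbpl1, a binding-protein-like gene of newborn neurons, was at 1.69, 0.304 and 1.96 FPKM in the mock brains, against 0.561, 0.341 and 0.122 FPKM after irradiation (log2 change -0.99, adjusted p = 0.18). Stc1, one of the stanniocalcins that inhibit the pappalysin proteases, had a log2 change of 0.48 (adjusted p = 0.19), and Htra3 one of -0.29 (adjusted p = 0.27). Pappa, the pappalysin that cuts IGFBP4, was below the minimum and is named after its values were seen. It was at 0.723, 0.513 and 0.334 FPKM in the mock brains, against 0.0635, 0.193 and 0.0851 FPKM after irradiation, lower in each irradiated library than in any mock library. Igfals, the partner of IGFBP3 in blood, stayed at or below 0.177 FPKM.

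Among 28 genes of insulin and IGF receptor signalling, 27 were tested, 1 was called higher and 0 lower (median log2 change -0.02). The 1 gene was Foxo6, a forkhead factor that the pathway restrains and that is expressed in forebrain. It had 2.43, 1.498 and 3.23 FPKM in the mock brains, against 8.27, 9.89 and 15.2 FPKM after irradiation, with every irradiated value above every mock value (log2 change 2.01, SE 0.29, limma adjusted p = 0.0053). With the telencephalon covariate it was 1.23 and not called (adjusted p = 0.19; range over 20 alternatives 0.0018 to 0.19). Next by p were Pik3ca and Pik3r2, a catalytic and a regulatory subunit of PI3K, with log2 changes of -0.52 (adjusted p = 0.12) and 0.70 (adjusted p = 0.18), and Foxo4 with one of -0.32 (adjusted p = 0.26). The insulin receptor gene Insr had 5.66, 4.31 and 3.83 FPKM in the mock brains, against 2.87, 4.72 and 3.84 FPKM after irradiation (log2 change -0.25, adjusted p = 0.50). The adaptors Irs1 and Irs2 had log2 changes of -0.43 and 0.21, neither of them called.

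A list of 9 genes joined neighbours and partners of Igf2 (imprinted genes, the insulin genes and IGF2 mRNA-binding proteins) with Airn from the Igf2r locus on another chromosome. Of these, 4 were tested, 1 was called lower and 0 higher (median log2 change -0.41), and the 1 was Airn. H19, the imprinted noncoding RNA beside Igf2, was at 0.698, 1.07 and 0.862 FPKM in the mock brains, against 0.577, 0.282 and 0.307 FPKM after irradiation (log2 change -0.64, SE 0.21, adjusted p = 0.097). Plagl1, an imprinted transcription factor, and Ins2, the insulin gene next to Igf2, had log2 changes of -0.19 and 0.09, and Ins1 was listed at 0 in each library. Igf2os, which overlaps Igf2 over 7137 bases on the other strand, stayed at or below 0.115 FPKM. The list of mannose 6-phosphate sorting genes, partners of IGF2R in lysosomal delivery, had 10 of 10 tested and 0 called in limma (0 at an unadjusted p under 0.05 in either direction; median 0.10), with Gga1 at 0.43, Gga2 and Gga3 both at 0.17 and M6pr at -0.15. The growth hormone list had 9 of 9 tested and 0 called (1 higher, 2 lower by unadjusted p under 0.05; median -0.21). Its smallest p-values were those of Stat5b, Prlr, Socs2 and Stat5a, with log2 changes of -0.53, -0.57, 0.37 and -0.44 and adjusted p of 0.14 to 0.30. Gh, the pituitary hormone, was listed at 0 in 5 libraries and at 5.08 FPKM in irradiated 3.

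**Figure D5:**
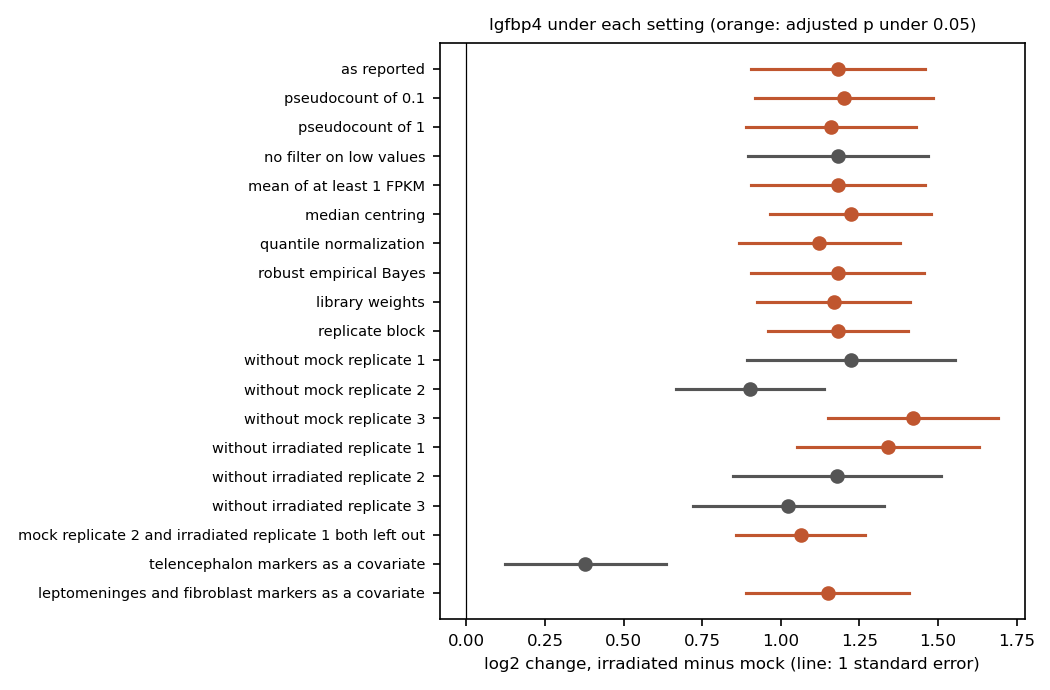
The log2 change of Igfbp4, irradiated minus mock (point), with 1 standard error to each side (line) under each setting; orange marks an adjusted p under 0.05. The change is above 0 in every setting shown and lies between 0.38 with the telencephalon covariate and 1.42 without mock replicate 3.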

How the data were processed

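RNA was sequenced from 3 mock-irradiated and 3 irradiated mouse brains. Per the labels' protocols, ribosomal RNA was depleted, stranded libraries were made from 2 μg of total RNA, and 75-nucleotide single-end reads were sequenced to about 30 to 40 M per library. The authors deposited a single matrix of FPKM. The submitters' processing notes list TopHat, Cufflinks, Cuffdiff and mm10, and for their versions, annotation and settings the entry is not given in the sources used here. Depth is otherwise unknown, and no count test was run. FPKM summed to 472450 to 625782 per library. From these values, 1 leftover header line was removed, and genes averaging 0.5 FPKM or more entered limma (version 3.58.1, under R 4.3.3) as log2(FPKM + 0.5). The model held only the group, with an empirical Bayes trend; p-values were two-sided and adjusted after Benjamini and Hochberg. Folds come from this scale, which understates low genes. The script was tested on simulated data. An exact permutation test of 3 against 3 cannot go below p = 0.1. The labels number the mice without saying that equal numbers share a litter or day.

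The members and lists were chosen with earlier results of these data known. The genes named are all 10 members and the called and up to 4 smallest-p genes of each pathway list. Where a marker list has genes named, these are 1 to 3 of its called or most abundant genes. Also named are the 3 nearest profiles of each member that ranged over more than 1 on the log2 scale. Other genes are marked as chosen after their values were seen or are background to a member (Insr, Irs1, Irs2, Igfals, Ins1, Igf2os, Gh). Ttr and Apoe are named for their part in a summed level, and Gpnmb, Axl and Csf1 for their negative changes. Astrocyte, interneuron and general neuron markers had 0 and 2, 3 and 2, and 0 and 0 genes called higher and lower, and 0 and 4, 5 and 2, and 2 and 1 by unadjusted p under 0.05 in limma. Gene positions are from RefSeq on GRCm38.p6, which mm10 represents, coding sequences and strands from GENCODE M21, and transcript lengths from the longest GENCODE transcript, found for 96.3% of tested genes. Alternatives were other pseudocounts, filters, scalings, weights, a replicate block, left-out libraries, marker covariates and thresholds. Foxo6 and Airn were added to these after their values were seen.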

Additional observations from a re-analysis of the deposited data

How the results depend on the processing

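Igfbp4 kept its direction in all 20 alternatives and its call in 14. Those 14 include the threshold of adjusted p under 0.1 and the minimum log2 change of 0.3. Both reuse the main fit, so Igfbp4 could lose neither its direction nor its call there. The number of members called higher was 0 instead of 1 with no filter on low values (Igfbp4 adjusted p = 0.070), where 19679 genes were tested, and with the telencephalon covariate, and it was 0 to 1 over the fits that leave out 1 library; the cause was not tested. None of the other members was called under any alternative, and no member was called lower. Over all genes, 508 higher and 618 lower became 863 and 976 with library weights, 17 and 60 with the telencephalon covariate, 1002 and 1149 at an adjusted p under 0.1, and 147 to 673 and 254 to 695 without 1 library. With the replicate number as a block, 401 were higher and 394 lower, and Igfbp4 was still the 1 member called (adjusted p = 0.043). Deviations of same-numbered libraries correlated at -0.33, 0.19 and 0.20. With 3 libraries a group, these values cannot decide whether equal numbers share a batch or litter. With the block the SE rose from 0.26 to 0.30 for Igf1r and from 0.24 to 0.27 for Igf2r. It fell for every other member, from 0.34 to 0.16 for Igfbp6.

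Over all 10 members the sign turned in 11 of 200 fits, each time in a member that was not called. The 200 include the fits of Igfbp4 and, for each member, the changed thresholds, which reuse the main fit and cannot turn a sign. Igf1r was 0.053 with quantile normalization, Igfbp2 0.018 with median centring and Igfbp6 -0.20 with the telencephalon covariate. Over the fits without 1 library, Igf1 ranged from -0.30 to 0.031, Igf2 from -0.31 to 0.086, Igf1r from -0.29 to 0.14, Igf2r from -0.38 to 0.010 and Igfbp2 from -0.31 to 0.28. The telencephalon covariate moved several members further, to -0.62 for Igf2, -0.72 for Igf1r, -0.61 for Igf2r and -0.59 for Igfbp2, none of them called. Depth is unknown, and 3 libraries a group limit what could be called.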
